A study of Boehmeria nivea with 6 samples.

Results

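Ramie (Boehmeria nivea) is a perennial plant grown for the long bast fibres of its stem. In the leaves, roots and stems of 30-day-old plants, 67 of 20693 genes stood at least 4-fold apart between QYZM, a wild tenacissima accession, and ZSZ1, a cultivar, in every organ and always in the same direction. Of these, 60 were higher in QYZM and 7 were higher in ZSZ1. They were chosen by that property: FPKM + 1 had to differ at least 4-fold in leaf, in root and in stem, with at least 1 FPKM in either variety in each organ. FPKM are fragments assigned to a gene, scaled by its length and by the size of the library. The variety differences of these genes are therefore descriptions, with no test.

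RNA sequencing gave 1 library for each organ of each variety, 6 in all. The groups were QYZM leaf, QYZM root, QYZM stem, ZSZ1 leaf, ZSZ1 root and ZSZ1 stem, with no replicate of any. All came from plants of the same age, no treatment is named, and nothing says how many plants a library holds or whether the organs of a variety came from the same plants. Column totals ran from 306497 FPKM in ZSZ1 leaf to 433435 FPKM in QYZM leaf. Relative depth was estimated from the most frequent ratio between libraries, over genes with nonzero values below 0.2 FPKM in both. If whole fragments were counted, this put library depths within 0.905 to 1.14 of their mean. The number of reads is unknown, so no counting interval is given.

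Plant varieties of the same species commonly differ in gene content, in the number of copies of a gene and in the sequences that control transcription. A gene that is transcribed in every organ of a plant is usually described as constitutive, and a gene with a strong preference for an organ as organ-specific. An FPKM of 0 in a table can mean that no fragment was assigned to that gene in that library, or that an estimate was set to 0, and the values do not tell which. The identifiers are paired with no names, products or positions in the sources used here. The roles of the genes and their sequences are therefore not described, and the organ labels were not checked against marker genes.

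Few genes met the rule. Of 12733 genes with at least 1 FPKM in either variety in each organ, 0.055% were at least 4-fold higher in ZSZ1 in all 3 organs and 0.471% were at least 4-fold higher in QYZM. The 60 genes higher in QYZM made up 15.3% of the 393 genes that were 4-fold higher in QYZM leaf (2.83% of the genes compared there), 13.2% of 455 in root (3.11%) and 18.6% of 323 in stem (2.23%). The 7 genes higher in ZSZ1 made up 6.67% of 105 genes in leaf (0.757% of those compared), 2.78% of 252 in root (1.72%) and 4.64% of 151 in stem (1.04%). A difference of this size in a single organ was more frequent, with 292 genes 4-fold apart in leaf alone, 502 in root alone and 247 in stem alone. In addition, 39 genes were 4-fold apart in opposite directions in different organs.

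**Figure D1:**
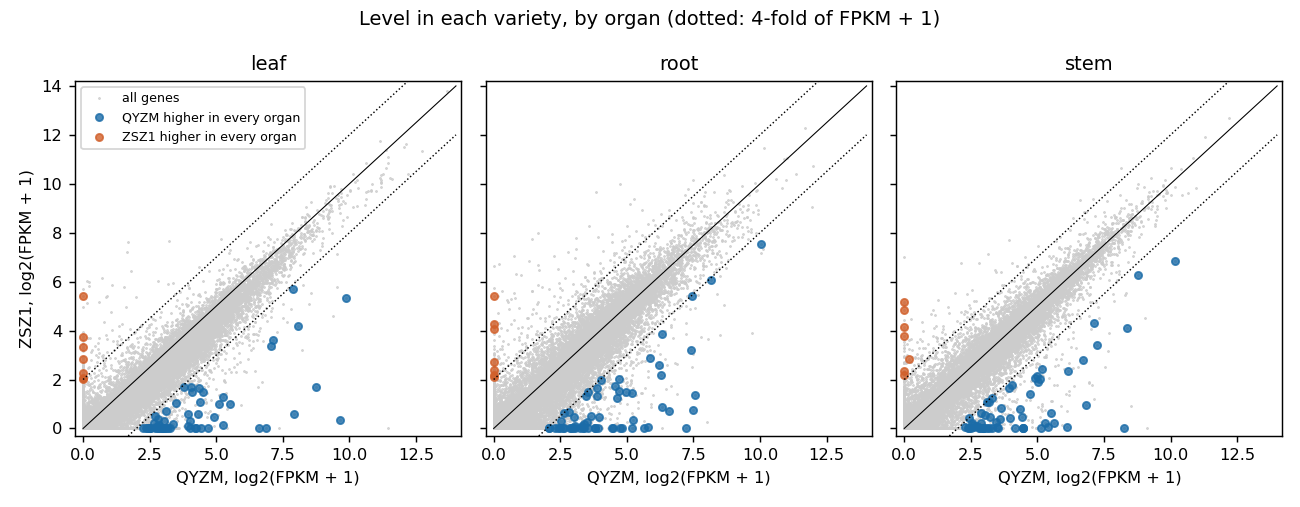
Level of every gene in QYZM (horizontal axis) and ZSZ1 (vertical axis) as log2(FPKM + 1), with 1 panel per organ and 1 library per axis; grey points are all genes, blue points the 60 genes higher in QYZM in every organ and orange points the 7 higher in ZSZ1, and dotted lines mark a 4-fold difference of FPKM + 1. The orange points lie on or next to the vertical axis, where QYZM is at 0, while the blue points run from the horizontal axis up to levels of over 100 FPKM in ZSZ1 root and stem.

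As a group, the 67 genes took 0.927% of all FPKM in QYZM leaf, 0.873% in QYZM root and 0.923% in QYZM stem. In ZSZ1 they took 0.0752% in leaf, 0.122% in root and 0.0987% in stem. Bnt14G019639 alone stood at 939 to 1134 FPKM in the QYZM libraries. The 60 genes higher in QYZM had a median, over genes, of 13.9 FPKM for their mean over the 3 QYZM organs. All genes with at least 3 FPKM in every QYZM organ, the level that passes the rule against a 0, had a median of 16.7 FPKM.

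The genes higher in ZSZ1 were all at or next to 0 in QYZM. For 6 of the 7, all 3 QYZM libraries were listed at 0, and the other had 0.136 FPKM in QYZM stem and 0 in the other two. None was expressed at a lower but measurable level of 1 FPKM or more in QYZM. Since the comparison is against listed zeros and the number of reads is unknown, no fold change is given for them.

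Bnt01G000084 was the most abundant of these genes, with similar values of 41.7 FPKM in the leaf, 41.3 in the root and 35.4 in the stem of ZSZ1. Bnt06G009599 stood at 6.06 FPKM in the leaf, 5.59 in the root and 27.6 in the stem, so that its stem value was far above the other two. Bnt01G000006 had 8.95 FPKM in the leaf, 15.9 in the root and 12.7 in the stem. The highest organ differed among these 3 genes, although all were listed at 0 throughout QYZM. None of the 3 was called in the organ tests given below. Bnt07G010862 was lowest in root, with 12.5 FPKM in the leaf, 4.3 in the root and 16.9 in the stem. Bnt11G016941, the gene with a value above 0 in QYZM stem, was highest in root, with 3.17 FPKM in the leaf, 18.3 in the root and 6.1 in the stem. The remaining genes were low in every ZSZ1 organ and near the level the rule requires. Bnt02G002015 had 3.1 FPKM in the leaf, 3.57 in the root and 4.15 in the stem, and Bnt12G017419 had 3.8, 3.31 and 3.5 FPKM.

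**Figure D2:**
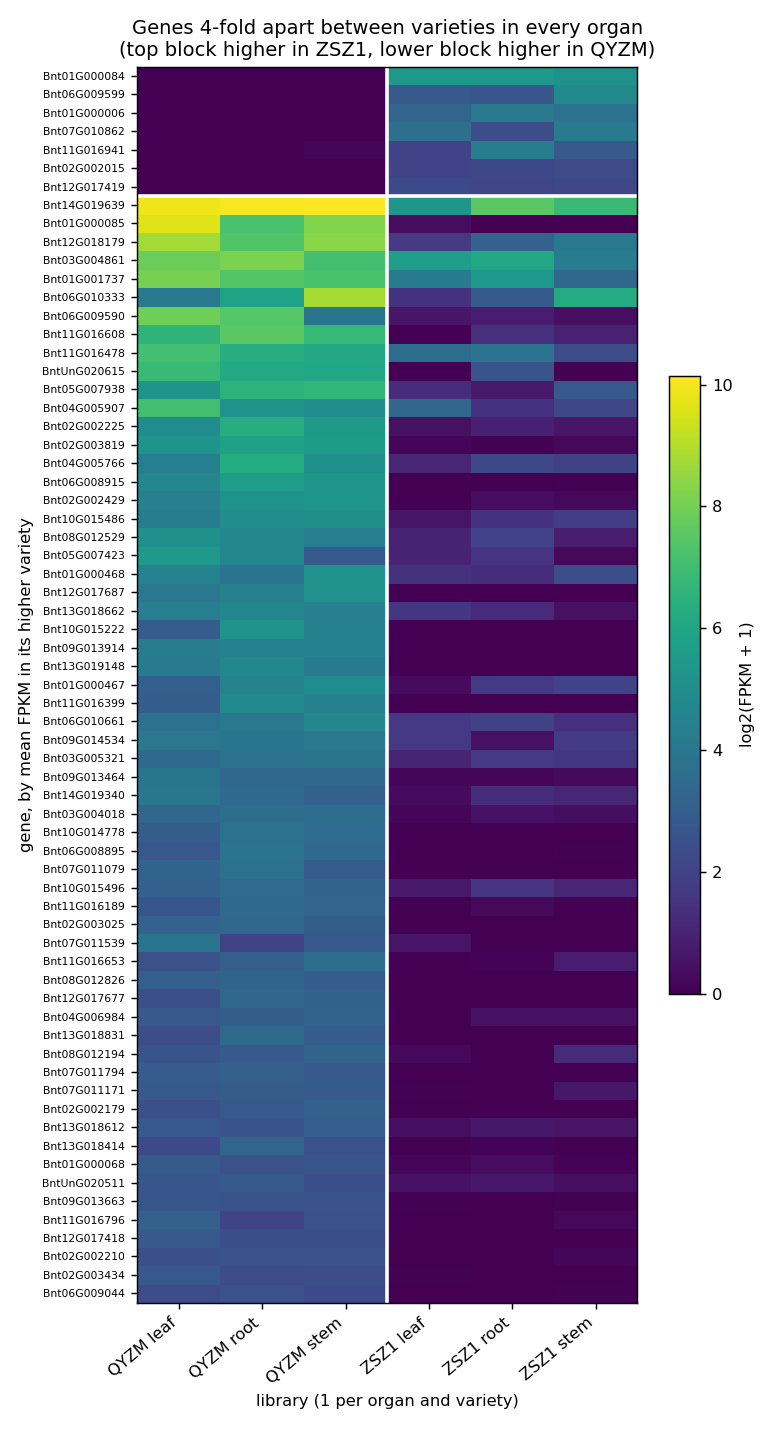
log2(FPKM + 1) of the 67 genes (rows) in the 6 libraries (columns), with the genes higher in ZSZ1 in the top block, those higher in QYZM below, and each block ordered by the mean FPKM in its higher variety. The top block is dark across all QYZM columns, while the lower block is led by Bnt14G019639 at 1040 FPKM (mean of the QYZM libraries). Its ZSZ1 columns do not follow that order, as in its second row, Bnt01G000085, at 0 to 0.28 FPKM.

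The 60 genes higher in QYZM covered a wider range in the other variety. In ZSZ1, 13 were listed at 0 in all 3 organs, 24 were below 1 FPKM in all 3 without being 0 throughout, 12 were on both sides of 1 FPKM, and 11 were at 1 FPKM or more in every organ. The number of genes that could pass against a 0 was not the same in the 2 varieties. Of 9754 genes with at least 3 FPKM in every QYZM organ, 0.133% were listed at 0 throughout ZSZ1 and 0.41% were below 1 FPKM throughout. Of 8324 genes with at least 3 FPKM in every ZSZ1 organ, 0.0721% were listed at 0 throughout QYZM and 0.12% were below 1 FPKM throughout. Since 3 FPKM against 0 meets the rule, the genes listed at 0 in these shares are the same 13 and 6 genes. The same count at a floor of 1 FPKM took in genes too low for the rule: 32 genes of QYZM and 17 genes of ZSZ1 were then listed at 0 throughout the other variety.

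Among the 13 genes listed at 0 in leaf, root and stem of ZSZ1, mean levels in QYZM ran from 4.97 to 23.2 FPKM. Bnt12G017687 was the most abundant, with 15.1 FPKM in the leaf, 20.6 in the root and 33.9 in the stem of QYZM. Bnt10G015222 had 6.71 FPKM in the leaf, 35.6 in the root and 20.7 in the stem, and Bnt11G016399 had a similar order, with 6.91, 27.1 and 20.8 FPKM. Both were lowest in leaf. In contrast, Bnt09G013914 was nearly even, at 18.0 FPKM in the leaf, 21.1 in the root and 20.9 in the stem. Bnt13G019148 was at 17.6 FPKM in the leaf, 25.5 in the root and 16.7 in the stem. The next genes stood lower, with Bnt10G014778 at 7.03, 13.1 and 10.6 FPKM and Bnt07G011079 at 8.63, 13.1 and 6.8 FPKM for QYZM leaf, root and stem. Bnt02G003025, Bnt08G012826 and Bnt12G017677 had means of 8.26, 7.55 and 7.27 FPKM over the QYZM organs. How deeply a listed 0 was sampled is not known.

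A further 24 genes stayed below 1 FPKM in every ZSZ1 organ but were above 0 in at least 1 of them. Their highest ZSZ1 value ranged from 0.0266 to 0.844 FPKM, with a median of 0.229 FPKM over genes, and 16 of the 24 were listed at 0 in at least 1 ZSZ1 organ. This set holds Bnt01G000085, the second most abundant of all 67 genes, with 796 FPKM in the leaf, 150 in the root and 300 in the stem of QYZM. In ZSZ1 it was listed at 0 in root and stem, with 0.28 FPKM in leaf. Bnt06G009590 had 242 FPKM in the leaf, 177 in the root and 14.5 in the stem of QYZM, against 0.526, 0.706 and 0.34 FPKM in the same organs of ZSZ1. Its QYZM stem value was far below leaf and root. The 3 ZSZ1 values were all below 1 FPKM, too low to read an organ profile.

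Between these genes and those expressed in all libraries lay 12 genes with ZSZ1 values on both sides of 1 FPKM. Bnt11G016608 stood at 95.2 FPKM in the leaf, 189 in the root and 112 in the stem of QYZM. In ZSZ1 it was listed at 0 in leaf and had 1.56 FPKM in root and 0.928 FPKM in stem. BntUnG020615 had 115 FPKM in the leaf, 72.1 in the root and 67.6 in the stem of QYZM. In ZSZ1 it was listed at 0 in leaf and had 5.09 FPKM in root and 0.0479 FPKM in stem. In both genes the highest ZSZ1 value was in root.

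The 11 genes that reached 1 FPKM in all 6 libraries were lower in ZSZ1 without being near 0. Their mean ZSZ1 level was 2.89% to 20.6% of the mean QYZM level, with a median of 10.96% over the 11 genes. Most of them were abundant, with a median over genes of 95.6 FPKM for the QYZM mean, which the rule in part fixes, since a higher ZSZ1 value requires a higher QYZM value. Bnt14G019639 led all 67 genes, with 939 FPKM in the leaf, 1046 in the root and 1134 in the stem of QYZM. In ZSZ1 it stood at 39.8 FPKM in the leaf, 185 in the root and 112 in the stem. As deposited, an even profile in QYZM was thus set against a leaf value far below the other organs in ZSZ1. Bnt03G004861 had the highest ZSZ1 share, 20.6%, with 234, 286 and 139 FPKM for QYZM leaf, root and stem and 51.0, 65.6 and 18.8 FPKM in ZSZ1. Its order of organs as deposited was root, leaf, stem in both varieties. Bnt01G001737 had 271 FPKM in the leaf, 173 in the root and 149 in the stem of QYZM, against 17.1, 41.7 and 9.58 FPKM in ZSZ1. Bnt11G016478 had 137, 79.9 and 69.6 FPKM in QYZM against 11.1, 13.4 and 4.14 FPKM in ZSZ1. As deposited, both were highest in leaf in QYZM and highest in root in ZSZ1. Median-of-ratios scaling, described below, divides ZSZ1 leaf by 0.601 and ZSZ1 root by 1.11. It puts leaf above root in ZSZ1 for Bnt11G016478 but not for Bnt01G001737. For Bnt14G019639 it narrows the gap between ZSZ1 leaf and the other ZSZ1 organs, with leaf still lowest.

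The organ profile was measured in the higher variety first, since the rule compared varieties and not organs. In QYZM, 39 of the 60 genes varied less than 2-fold in FPKM + 1 over the 3 organs (65%), against 57% of the 9754 genes with at least 3 FPKM in every QYZM organ. The median range over organs was 1.78-fold for the 60 genes and 1.84-fold for all 9754. At least 4-fold variation over organs was seen in 6 of the 60 (10%), against 11.8% of the 9754. The highest QYZM organ was root for 27 of the 60 genes, leaf for 18 and stem for 15, or 45%, 30% and 25%. Over the 9754 genes the shares were 41.5%, 23.7% and 34.8%. These shares are descriptions and were not tested. The 7 genes higher in ZSZ1 had a median range of 1.7-fold over the ZSZ1 organs, against 2.39-fold for the 8324 genes with at least 3 FPKM in every ZSZ1 organ. At least 4-fold variation was seen in 2 of the 7 (28.6%), against 18.5% of the 8324.

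Whether the profile was kept in ZSZ1 could be read only for the 11 genes with at least 1 FPKM in all libraries. As deposited, the highest organ was the same in both varieties for 5 of the 11 (45.5%), against 7251 of 10930 genes that reached 1 FPKM in all libraries (66.3%). It was the same for 6 of the 11 under median-of-ratios scaling and under quantile normalization. The share over all genes is not given under these scalings. These counts set no minimum margin, for the 11 or for all genes, so near ties can count as changes. In Bnt03G005321, the stem minus root difference was 0.047 in QYZM and -0.016 in ZSZ1 on the log2(FPKM + 1) scale. The sign of the leaf minus root difference was the same for 8 of the 11, against 82.3% of the 10930 genes. For leaf minus stem it was the same for 9 of the 11, against 85.7%, and for stem minus root for 7 of the 11, against 70.7%. With 11 genes and 1 library per organ and variety these shares are descriptions. No gene was at least 2-fold above both other organs in a different organ of each variety.

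Bnt06G010333 had the largest range over QYZM organs of the 60 genes and kept its order in ZSZ1. In QYZM it stood at 16.0 FPKM in the leaf, 57.6 in the root and 439 in the stem, and in ZSZ1 at 1.84, 6.29 and 75.8 FPKM. Bnt04G005907 was highest in leaf in both varieties, with 133, 35.5 and 30.6 FPKM for QYZM leaf, root and stem and 9.3, 1.76 and 3.46 FPKM in ZSZ1. Bnt04G005766 was highest in root in both, with 19.8, 77.7 and 33.2 FPKM in QYZM and 1.11, 3.56 and 3.01 FPKM in ZSZ1. Bnt12G018179 did not keep its order. It had 423 FPKM in the leaf, 167 in the root and 325 in the stem of QYZM, and 2.26 FPKM in the leaf, 8.13 in the root and 16.1 in the stem of ZSZ1, so that leaf was its highest organ in QYZM and its lowest in ZSZ1.

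**Figure D3:**
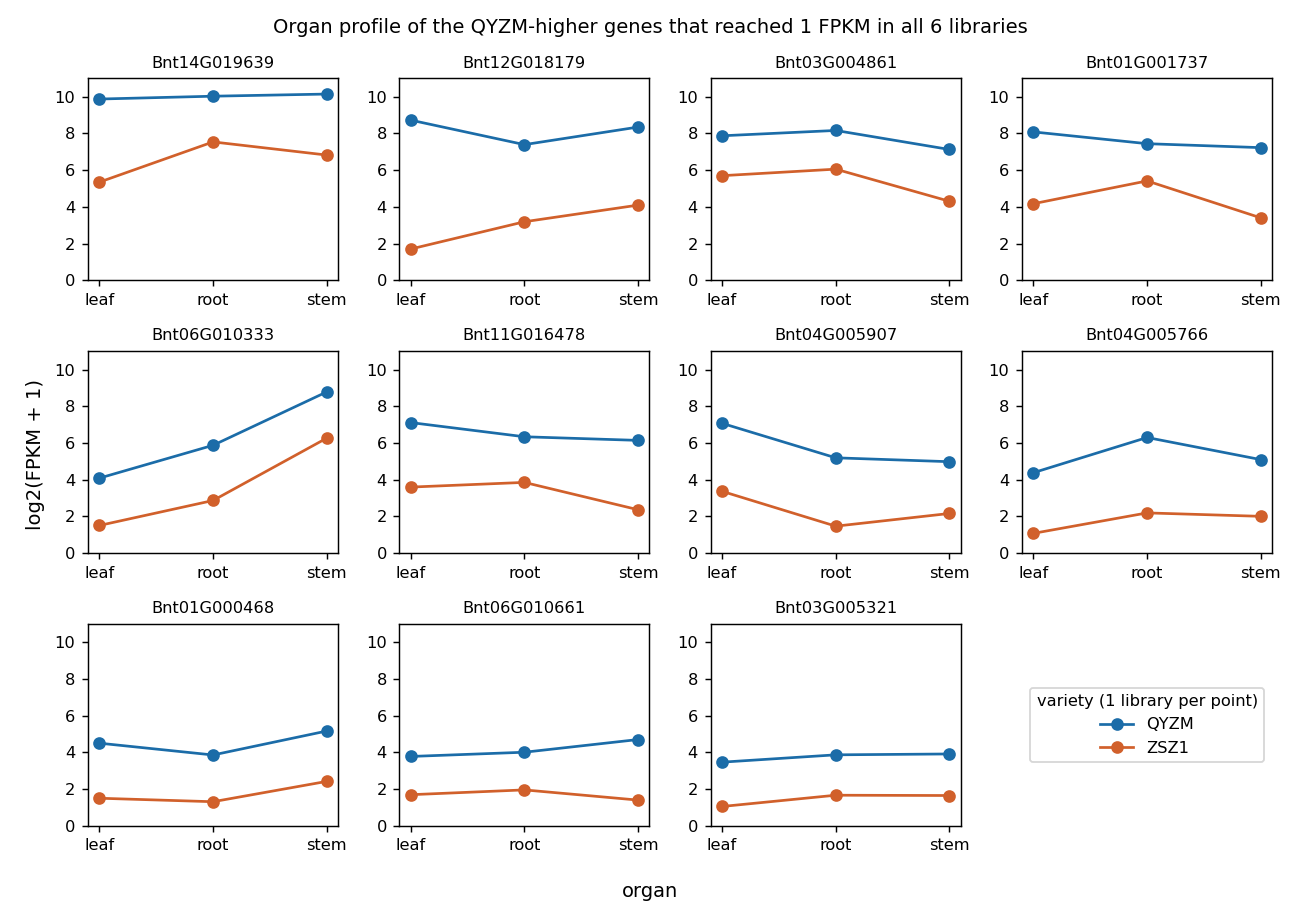
log2(FPKM + 1) in leaf, root and stem (horizontal axis) of QYZM (blue) and ZSZ1 (orange) for the 11 genes that reached 1 FPKM in all 6 libraries, with 1 library per point and no error bar because no organ of a variety had a replicate. The lines run roughly parallel in Bnt06G010333, which climbs from leaf to stem in both varieties, and in opposite directions between leaf and root in Bnt12G018179.

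Organ differences were tested with limma, a linear model with organ and variety terms fitted on log2(FPKM + 1) of all 14941 genes that reached 1 FPKM in 2 or more libraries. Calls required a p below 0.05 after Benjamini-Hochberg adjustment and a difference of 2-fold or more. All 67 genes entered the test. The error term is the departure of single libraries from additivity, so a gene near 0 throughout 1 variety can show an organ difference only in the other. For leaf against root, 5 of the 67 were called, 1 higher and 4 lower in leaf, against 35.2% of all tested genes (11.1% higher and 24.1% lower). For leaf against stem, 4 were called, 2 higher and 2 lower in leaf, against 29.4% (8.13% and 21.3%). For stem against root, 1 was called, higher in stem, against 5.37% (3.64% higher and 1.73% lower). At an unadjusted p below 0.05 the counts were 9, 10 and 4 of the 67. Of the 11 genes expressed in all libraries, 3 were called for leaf against root, and of the other 56 genes, 2. The counts over all 14941 genes depended on scaling. Under median-of-ratios scaling, 3633 were called for leaf against root (5252 as deposited) and 2931 for leaf against stem (4397 as deposited). Of the 67, 4 and 6 were called under that scaling. In the 44 genes below 1 FPKM throughout their lower variety, an organ difference is averaged with a small or absent one and enters the error. The low share of calls is in part fixed by the rule and is not read as a lack of organ differences.

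Bnt06G010333 was the gene called in all 3 comparisons. Its stem level exceeded its leaf level by 4.73 ± 0.27 on the log2(FPKM + 1) scale (SE; leaf minus stem -4.73, limma adjusted p = 0.00205), and its root level by 3.15 ± 0.27 (SE; limma adjusted p = 0.014). Its leaf minus root difference was -1.57 ± 0.27 (SE; limma adjusted p = 0.0109). Bnt04G005907 was higher in leaf than in root by 1.89 ± 0.33 (SE; limma adjusted p = 0.0116) and than in stem by 1.65 ± 0.33 (SE; limma adjusted p = 0.02). Bnt01G000467 was lower in leaf, with differences of -1.46 ± 0.28 against root (SE; limma adjusted p = 0.0149) and of -1.81 ± 0.28 against stem (SE; limma adjusted p = 0.0113). Bnt04G005766 was lower in leaf than in root (-1.52 ± 0.34, SE; limma adjusted p = 0.0228). Bnt05G007423, at 44.4, 24.8 and 6.33 FPKM for QYZM leaf, root and stem and 0.992, 1.85 and 0.151 FPKM in ZSZ1, was higher in leaf than in stem (1.71 ± 0.49, SE; limma adjusted p = 0.0469). The fifth gene called for leaf against root was Bnt11G016608, at -1.17 ± 0.29 (SE; limma adjusted p = 0.0296). In ZSZ1, Bnt11G016608 was listed at 0 in leaf and had 1.56 FPKM in root, and Bnt01G000467 had 0.233 FPKM in leaf. At such levels the added 1 weighs heavily in the difference.

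Each of these calls was lost when QYZM leaf or ZSZ1 leaf was left out, where limma called 0 of all 14941 genes and 5 to 11 of the 67 had an unadjusted p below 0.05. Other single libraries decided some of them. Without QYZM root, the difference of Bnt04G005766 between leaf and root was -1.06 (limma adjusted p = 0.102). The leaf minus stem call was lost without QYZM stem for Bnt05G007423 (1.12, limma adjusted p = 0.218), Bnt04G005907 (1.20, limma adjusted p = 0.132) and Bnt01G000467 (-1.77, limma adjusted p = 0.0547). Without ZSZ1 stem it was lost for Bnt05G007423 (2.30, limma adjusted p = 0.0504) and Bnt01G000467 (-1.85, limma adjusted p = 0.0572). A pseudocount of 5 ended the leaf minus root calls of Bnt04G005766 and Bnt01G000467 and the leaf minus stem call of Bnt05G007423, whose call was also lost with no filter on low values (limma adjusted p = 0.0878). Median-of-ratios scaling ended the call of Bnt04G005766 (-1.03, limma adjusted p = 0.0781). The leaf minus root call of Bnt11G016608 was named after its values were seen. That call was lost under 10 of the 18 alternatives, more than any other of these calls. It was lost without QYZM root (limma adjusted p = 0.087), ZSZ1 root (limma adjusted p = 0.0835) or QYZM stem (limma adjusted p = 0.05004), with 0.1 or 5 added, and under median-of-ratios scaling (-0.91, limma adjusted p = 0.0962), and its adjusted p ran from 0.0222 to 0.79 over the alternatives. Leaving the variety term out ended every one of the named calls. Over all 18 alternatives the adjusted p ran from 0.0137 to 0.53 for Bnt04G005766, from 0.0228 to 0.492 for Bnt05G007423, and from 0.000107 to 0.0887 for the leaf minus stem difference of Bnt06G010333. Counts moved as well: for leaf against stem, 7 were called without QYZM root, 8 without ZSZ1 root and 2 without QYZM stem, and for stem against root, 5 without QYZM root, 2 without QYZM stem and 2 without ZSZ1 stem.

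The identifiers carry 1 of 14 numbered prefixes or the prefix Un, followed by a number that runs through the whole table without gaps. The 67 genes were spread over all 15. Prefix 02 held 8 of them, and prefixes 01, 06 and 11 held 7 each. As a share of the genes that could pass, they ranged from 0.183% under prefix 05 (2 of 1094) to 0.978% under prefix 11 (7 of 716). Prefix 12 followed at 0.843%, Un at 0.833% (2 of 240) and prefix 13 at 0.81%. With 2 to 8 genes per prefix these shares rest on few genes. The 7 genes higher in ZSZ1 had the prefixes 01 (2 genes), 02, 06, 07, 11 and 12 (1 gene each).

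**Figure D4:**
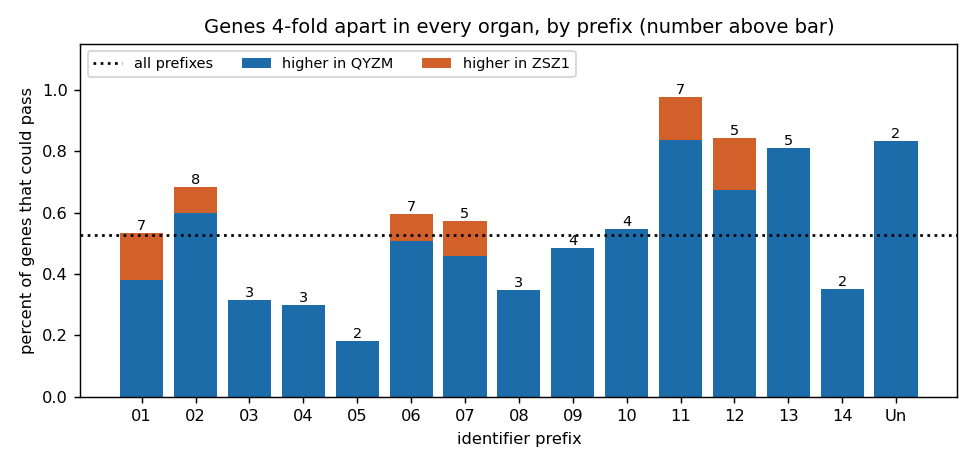
Genes 4-fold apart in every organ as a percent of the genes with at least 1 FPKM in either variety in each organ, by identifier prefix, with the genes higher in QYZM in blue, those higher in ZSZ1 in orange, the number of genes above each bar and the share over all prefixes (0.526%) as a dotted line. Bars range from 0.183% for prefix 05 to 0.978% for prefix 11.

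Some of the genes followed each other in identifier order. The identifier order was taken as deposited, and whether consecutive numbers are neighbours on a chromosome is not stated in the sources used here. Of the 67, 6 had another of the 67 as the directly preceding or following identifier (8.96%), against 71 of the 12666 other genes that could pass (0.561%). Within 5 numbers the count was still 6, within 10 it was 12 (17.9%, against 5.38%) and within 20 it was 17 (25.4%, against 10.5%). The 6 genes formed 3 pairs, and in 2 of these pairs the directions were opposite.

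In the first opposite pair, Bnt01G000084 was listed at 0 in QYZM and stood at 35.4 to 41.7 FPKM in ZSZ1, while Bnt01G000085, the next identifier, stood at 150 to 796 FPKM in QYZM and at 0 to 0.28 FPKM in ZSZ1. Their flanking genes were low: Bnt01G000083 reached 2.19 FPKM in QYZM leaf and was listed at 0 throughout ZSZ1, and Bnt01G000086 was listed at 0 in all 6 libraries. In the second, Bnt12G017418 had 6.2 FPKM in the leaf, 4.36 in the root and 4.36 in the stem of QYZM and was listed at 0 in ZSZ1. Bnt12G017419 was listed at 0 in QYZM and had 3.31 to 3.8 FPKM in ZSZ1. The gene after it, Bnt12G017420, again stood higher in QYZM, at 1.83 FPKM in the leaf, 3.79 in the root and 3.07 in the stem against 0.0473, 0.489 and 0.398 FPKM in ZSZ1, without reaching 4-fold. The gene before them, Bnt12G017417, had 0.793 to 1.34 FPKM in QYZM and 0.0586 to 0.156 FPKM in ZSZ1.

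The pair with the same direction was Bnt01G000467 and Bnt01G000468, both higher in QYZM. Bnt01G000467 stood at 7.32 FPKM in the leaf, 22.4 in the root and 29.4 in the stem of QYZM and at 0.233, 2.31 and 3.17 FPKM in ZSZ1. Bnt01G000468 had 21.7, 13.5 and 34.9 FPKM in QYZM and 1.84, 1.49 and 4.36 FPKM in ZSZ1. The preceding gene, Bnt01G000466, was also higher in QYZM in every organ, with 748 FPKM in the leaf, 2.02 in the root and 51.1 in the stem against 141, 0.0889 and 6.25 FPKM in ZSZ1. Its profile was led by leaf, unlike that of both genes after it. The gene that follows, Bnt01G000469, had 25.3, 2.14 and 5.06 FPKM for QYZM leaf, root and stem and 4.2, 0.518 and 2.17 FPKM in ZSZ1.

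The 67 genes had 134 directly adjacent identifiers, of which 6 were among the 67, 57 were too low to pass the rule and 71 could have passed it. These 71 genes were taken by their identifiers and by not meeting the rule. The 66 of them next to a gene higher in QYZM had a median ZSZ1 minus QYZM difference, averaged over organs, of -0.18 on the log2(FPKM + 1) scale, against -0.21 over all 12666 other genes that could pass. Of the 66, 6 were at least 2-fold higher in QYZM in every organ (9.09%, against 1.89% of the 12666) and 1 was at least 2-fold higher in ZSZ1 in every organ (1.52%, against 0.355%). The 6 were Bnt01G000466, Bnt02G002226, Bnt07G011170, Bnt09G013915, Bnt13G018661 and BntUnG020512. Bnt09G013915 followed Bnt09G013914 and, like it, was listed at 0 throughout ZSZ1, with 1.5, 2.3 and 1.33 FPKM for QYZM leaf, root and stem.

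The neighbour that was higher in ZSZ1 was Bnt06G010332, which precedes Bnt06G010333. It was listed at 0 in leaf and stem of QYZM and had 0.705 FPKM in root, against 2.97 FPKM in the leaf, 131 in the root and 129 in the stem of ZSZ1. Its leaf value left it just short of the rule, at 3.97-fold. Over the whole table, 351 genes were at least 2-fold apart in every organ in the same direction (52 higher in ZSZ1, 299 higher in QYZM). They formed 18 pairs of consecutive identifiers, 5 of them opposite. Near-identical genes can exchange fragments in counting, and whether the genes of any pair resemble each other in sequence was not tested.

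**Figure D5:**
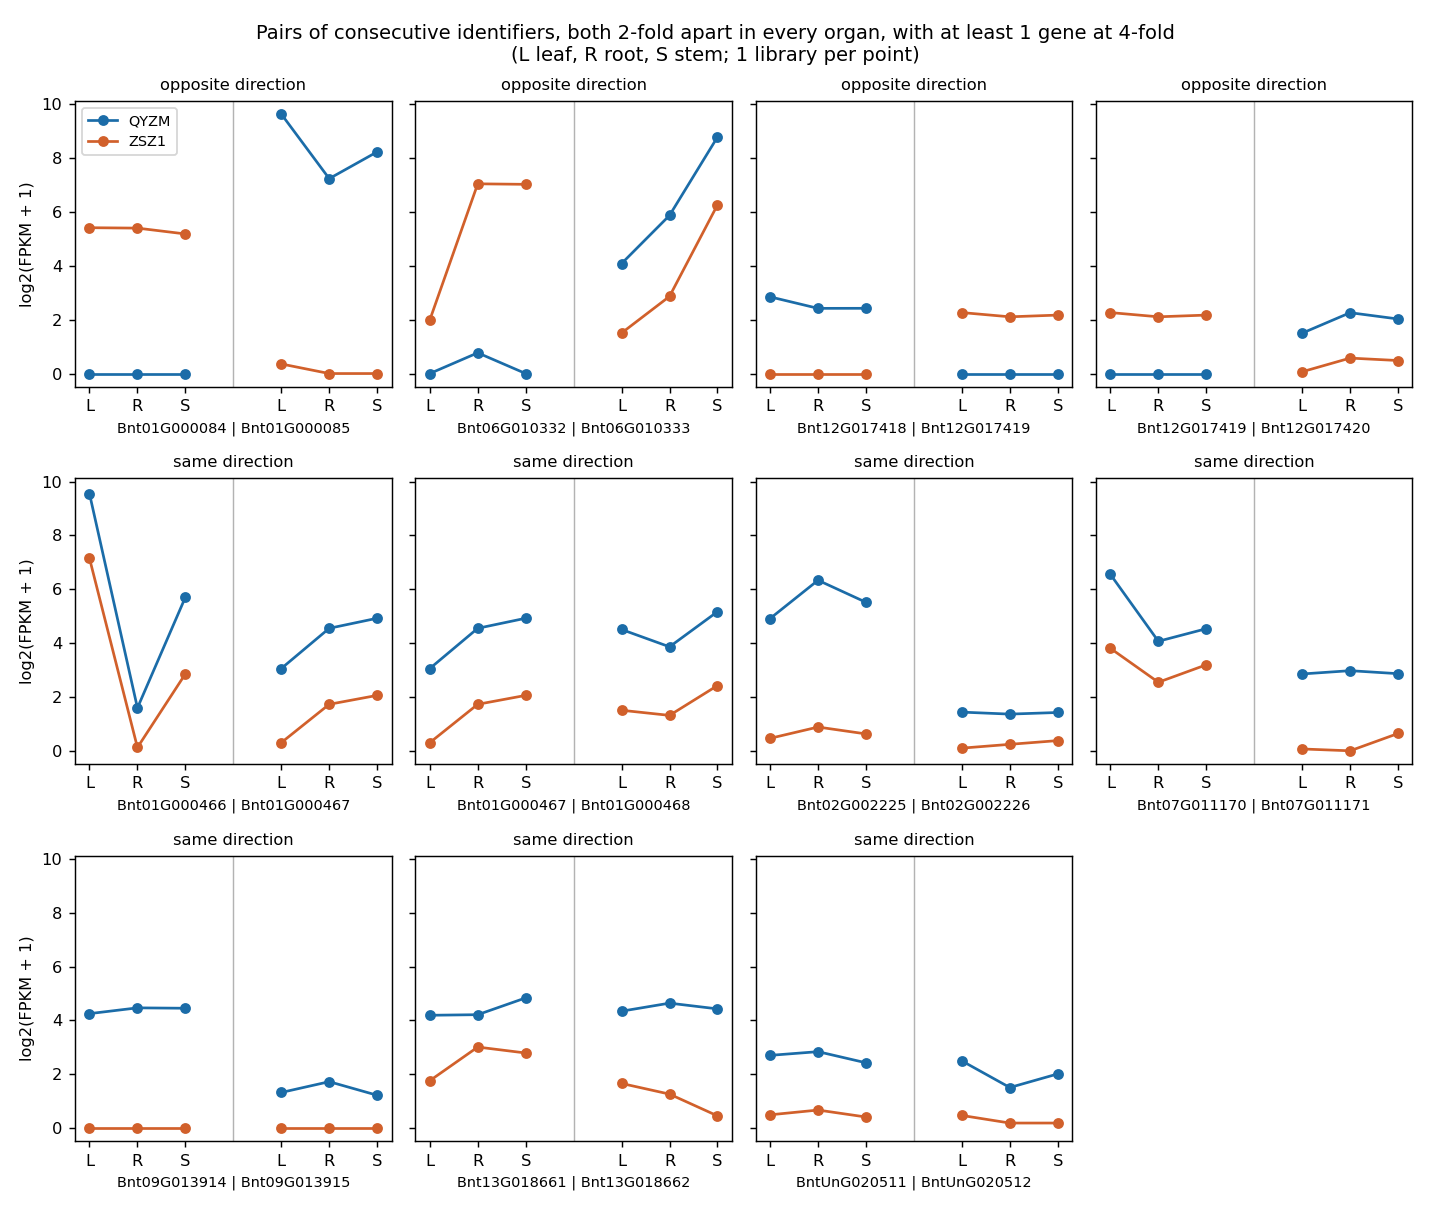
log2(FPKM + 1) in leaf (L), root (R) and stem (S) of QYZM (blue) and ZSZ1 (orange) for the 11 pairs of consecutive identifiers in which both genes are at least 2-fold apart in every organ and at least 1 of them is 4-fold apart, with the first gene left and the second right of the grey line and 1 library per point. In the 4 opposite pairs the colours change places across the line, as in Bnt01G000084 and Bnt01G000085; in the other 7 pairs blue lies above orange in both genes.

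The rule draws a line through a continuous range. Just inside it were Bnt13G018612 at 4.01-fold in root, Bnt14G019340 at 4.02-fold in stem and BntUnG020511 at 4.04-fold in stem, each in its least different organ. Just outside were Bnt11G016132 at 3.99-fold and Bnt02G003324 at 3.98-fold, each in leaf, together with Bnt06G010332. Bnt11G016132 had 2.99, 11.6 and 12.2 FPKM for QYZM leaf, root and stem and 0 to 0.151 FPKM in ZSZ1. Bnt02G003324 was higher in ZSZ1, with 17.1, 28.6 and 29.1 FPKM, and had 3.55, 1.76 and 4.5 FPKM in QYZM. Genes 4-fold apart in 2 organs but not in the third numbered 57 where leaf was missed, 72 where root was missed and 47 where stem was missed.

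The median ZSZ1 minus QYZM difference over the genes that could pass as deposited lay at -0.45 (leaf), -0.12 (root) and -0.06 (stem) on the log2(FPKM + 1) scale. Scaling by the median of ratios, a step built to bring library medians together, moved these to 0.04, -0.01 and 0.03. Under it, 62 genes met the rule, 11 higher in ZSZ1 and 51 higher in QYZM, of which 54 were among the 67 in the same direction (6 and 48). Scaling each library to a total of 1000000 raised every value, so that the added 1 weighed less, and gave 146 genes, 35 higher in ZSZ1 (24.0%, against 10.4% as deposited) and 111 higher in QYZM. Under each scaling tried, more genes were higher in QYZM than in ZSZ1. The assembly and gene models to which fragments were assigned are not given in the labels or files used here, and whether they stand closer to either variety was not tested.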

How the data were processed

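Per the labels' protocols, total RNA of 6 samples was extracted separately and made into 1 cDNA library each. A single table of 20693 genes with FPKM values was deposited by the authors. Bowtie2 and RSEM are listed, with neither version nor role, in the submitters' processing notes, and the genome build is not given in the sources used here. Depth is unknown beyond its ratio between libraries, estimated from genes below 0.2 FPKM.

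The 4-fold rule, organ profiles, prefixes and identifier neighbours were computed with Python 3.11.15, numpy 2.4.6 and pandas 2.3.3, and figures with matplotlib 3.10.9. For organ differences, limma 3.58.1 (R 4.3.3) was run on log2(FPKM + 1) with variety as a term and a mean-variance trend, with 2 residual and 3.71 prior degrees of freedom. The fit was tested on simulated data that held no variety difference, so genes like those chosen here were not covered. P-values measure only the spread among these 6 libraries, which may be technical.

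The 67 genes and the rules were chosen with earlier results of these data known. Named genes were all 7 higher in ZSZ1, the 10 highest in QYZM, the 10 highest of those listed at 0 throughout ZSZ1, the 3 largest called organ differences in each direction, genes within 2 identifiers of each other with their neighbours, and the 3 genes on either side of the threshold. Other genes, and the leaf minus root call of Bnt11G016608, were named after their values were seen. Alternatives changed the added value, filter, fold, scaling, moderation or variety term, or left out a library or organ.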

Additional observations from a re-analysis of the deposited data

Results flagged for a closer look

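Bnt12G018179 was picked out because its leaf minus root difference ran in opposite directions in the 2 varieties, at least 2-fold in each. The difference was 1.34 in QYZM and -1.49 in ZSZ1 on the log2(FPKM + 1) scale, which are 2.82 apart. It rests on 1 library per organ and variety and was not tested. Of the 67 genes it was the only one that met this criterion in any of the 3 organ pairs. The 44 genes below 1 FPKM throughout their lower variety could not meet it, since such values cannot lie 2-fold apart in FPKM + 1.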

How the results depend on the processing

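The labels number no replicates, so no samples were paired by number. The organ comparisons were made within variety through the variety term of the fit, whose removal is given below. The count of 67 genes (7 higher in ZSZ1, 60 higher in QYZM) depended most on the value added to FPKM and on the fold. It was 189 (35 and 154) with 0.1 added, 19 (1 and 18) with 5 added, 351 (52 and 299) at 2-fold and 21 (2 and 19) at 8-fold. A total of 1000000 gave 146 (35 and 111), and the rule on 2 organs, which is laxer by construction, gave 125 (25 and 100) without leaf, 141 (25 and 116) without root and 118 (17 and 101) without stem. Genes higher in ZSZ1 numbered 3 at a minimum of 5 FPKM, 11 under median-of-ratios scaling and 12 under quantile normalization. The 44 genes below 1 FPKM throughout their lower variety became 26 below 0.1 FPKM and 19 listed at 0. Genes with another of the 67 nearby numbered 6 for direct neighbours, 12 within 10 and 17 within 20 numbers.

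Of the organ calls, leaf against root had 2 at a pseudocount of 5, 0 at 4-fold and 0 with no variety term. Leaf against stem had 1 and 0 at 4-fold and with no variety term, and stem against root had 0 with no variety term, which places the large variety differences of these genes in the error. Without the variety term 0, 1 and 0 of the 67 had an unadjusted p below 0.05 in limma. Leaving out 1 library gave 0 to 7 calls between leaf and root, 0 to 8 between leaf and stem and 0 to 5 between stem and root. The cause of these movements was not tested beyond what each alternative removes or adds. No named organ difference changed direction under any of the 18 alternatives. Their adjusted p over these alternatives reached from 0.00586 to 0.424 and from 0.00806 to 0.494 for Bnt04G005907 (leaf against root and against stem), from 0.0109 to 0.454 and from 0.006 to 0.366 for Bnt01G000467, and from 0.00915 to 0.4 and from 0.00242 to 0.297 for Bnt06G010333 (leaf and stem against root).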

Other observations

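Consecutive identifiers with opposite direction occurred once more outside the genes described above. Bnt04G005880 stood at 6.9, 10.9 and 8.64 FPKM for QYZM leaf, root and stem and at 1.68, 0.379 and 2.51 FPKM in ZSZ1. The next gene, Bnt04G005881, had 1.97, 0 and 0.31 FPKM in QYZM and 6.21, 7.16 and 6.62 FPKM in ZSZ1. Both were at least 2-fold and less than 4-fold apart in their least different organ. A pair in which both genes were higher in ZSZ1 was Bnt06G008935, with 0.294 to 0.72 FPKM in QYZM and 1.84 to 5.83 FPKM in ZSZ1, and Bnt06G008936, listed at 0 throughout QYZM and at 1.18 to 8.72 FPKM in ZSZ1.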
